A study of Mus musculus with 6 samples.

Results

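The transcripts examined here encode the MiT transcription factors TFEB, TFE3 and MITF, folliculin with its partners FNIP1 and FNIP2, and the Rag GTPases. They were taken by gene symbol as Tfeb, Tfe3, Mitf, Flcn, Fnip1, Fnip2, Rraga, Rragb, Rragc and Rragd, and all 10 were found among the 24421 symbols of the count table. Of these, 9 had enough reads to be tested, and Rragb had 0 counts in every library. The cells were C2C12, a mouse myoblast line that fuses into myotubes. They were grown in 10% FBS, given lentivirus with a hairpin against Gaa (shGAA, 3 libraries) or a scrambled hairpin (shScrambled, 3 libraries), selected with puromycin and differentiated in 2% horse serum with 4.5 g/l glucose. Gaa encodes the lysosomal enzyme that releases glucose from glycogen, and the study is about glycophagy, in which autophagy brings glycogen into lysosomes. All titles carry the word Fed, which is not explained. The number of hairpin sequences is not given in the sources used here, nor whether the 3 libraries of a group are separate infections or cultures. P-values thus reflect library-to-library spread only, and that spread may be technical.

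MiT factors bind short E-box motifs in promoters of lysosomal and autophagy genes. Their activity is set mostly after translation. On a lysosome with ample amino acids, a Rag heterodimer of RagA or RagB with RagC or RagD recruits mTORC1, and also presents TFEB and TFE3 to it, so that they are phosphorylated and kept in the cytoplasm. Folliculin with FNIP1 or FNIP2 is the GTPase-activating complex for RagC and RagD and is needed for that step. When it does not act, TFEB and TFE3 enter the nucleus. Several genes of this circuit, among them Flcn, Fnip1, Fnip2, Rragc and Rragd, are themselves known targets of these factors, which gives the circuit feedback loops. In muscle, TFEB is known for its links to exercise, mitochondrial and glucose metabolism. RNA levels, the only quantity measured here, do not report the location or phosphorylation of the factors.

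Because several of these genes are known MiT targets, their promoters were read for the core motif. Promoter sequences of all 10 genes came from RefSeq on GRCm38.p6, as 15 windows of 300 bases, each with 250 bases before an annotated start and 50 after it. The palindrome CACGTG was found in the windows of 3 genes, Fnip1, Rragb and Rragc. It is present in 7.15% of all 32851 such windows. All of its occurrences in these 3 genes extend to TCACGTG on one strand, a longer form that contains CACGTG and is present in 3.77% of all windows. The related form TCATGTG (3.77% of windows, both strands searched) was in none of the 15. The windows below are printed because they belong to genes with the motif or to the genes that changed most. They are written 5′ to 3′ on the gene's strand in lower case, with the motif and its adjoining base in capitals. For the position of each motif, the distance from its first base to the annotated start is given. It is 75 bases in Fnip1, 112 bases in Rragc, and 127, 36 and 3 bases in Rragb. The annotated start is that of the window. In Fnip1 and Rragb it lies inside the gene span given further below, not at its first base. The windows lie at chr11:54437929-54438228 (plus strand, Fnip1), chr4:123917183-123917482 (plus strand, Rragc), chrX:153139708-153140007 (plus strand, Rragb), chr11:59809990-59810289 (minus strand, Flcn) and chr4:32982748-32983047 (plus strand, Rragd).
Fnip1: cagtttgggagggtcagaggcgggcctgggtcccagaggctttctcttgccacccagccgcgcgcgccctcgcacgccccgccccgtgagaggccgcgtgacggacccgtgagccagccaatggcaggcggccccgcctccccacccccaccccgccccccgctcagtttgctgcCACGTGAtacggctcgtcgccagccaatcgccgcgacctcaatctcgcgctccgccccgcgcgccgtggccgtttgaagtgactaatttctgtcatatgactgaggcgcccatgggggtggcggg
Rragc: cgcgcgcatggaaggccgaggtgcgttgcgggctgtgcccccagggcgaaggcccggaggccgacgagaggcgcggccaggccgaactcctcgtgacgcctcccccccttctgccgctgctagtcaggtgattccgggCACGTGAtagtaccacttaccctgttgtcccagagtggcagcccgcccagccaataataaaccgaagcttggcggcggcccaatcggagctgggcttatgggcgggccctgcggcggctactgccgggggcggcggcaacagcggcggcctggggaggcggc
Rragb: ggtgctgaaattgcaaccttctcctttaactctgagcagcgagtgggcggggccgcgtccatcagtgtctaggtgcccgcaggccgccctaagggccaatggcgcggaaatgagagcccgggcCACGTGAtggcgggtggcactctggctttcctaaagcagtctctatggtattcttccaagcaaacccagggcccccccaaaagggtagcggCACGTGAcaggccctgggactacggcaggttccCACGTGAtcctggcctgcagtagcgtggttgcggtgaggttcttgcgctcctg
Flcn: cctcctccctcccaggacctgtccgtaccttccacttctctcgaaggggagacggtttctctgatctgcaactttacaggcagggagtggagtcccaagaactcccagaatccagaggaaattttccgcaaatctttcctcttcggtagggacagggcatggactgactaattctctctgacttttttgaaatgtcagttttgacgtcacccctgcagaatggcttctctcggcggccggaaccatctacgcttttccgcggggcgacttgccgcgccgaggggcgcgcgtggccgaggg
Rragd: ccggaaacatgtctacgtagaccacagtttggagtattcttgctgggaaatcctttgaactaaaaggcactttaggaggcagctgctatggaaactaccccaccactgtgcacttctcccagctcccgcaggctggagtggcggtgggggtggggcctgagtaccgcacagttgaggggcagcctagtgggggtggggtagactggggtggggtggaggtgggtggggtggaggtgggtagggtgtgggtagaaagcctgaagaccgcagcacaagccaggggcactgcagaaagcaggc
A match is a run of letters and not a measured binding site. Sites outside these windows and other E-box forms were not searched. Flcn, Fnip2 and Rragd, without a match in their windows, rose in shGAA, Fnip1 with a match rose, and Rragc with a match fell, as described next. Whether a match goes with the direction of change was not tested.

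Libraries held 9224038 to 10430270 counts, and 11801 genes were tested. Levels are given as CPM, the count relative to the TMM-scaled library size on a common scale, and fold changes as log2 of shGAA over shScrambled with their standard error (SE). Genes were called at an adjusted p under 0.05 in edgeR's quasi-likelihood test, with adjustment over all tested genes. Gaa had 47.5 to 51.9 CPM in shGAA and 106 to 124 CPM in shScrambled, all below the controls. The library shScrambled 1 stood apart from shScrambled 2 and 3, since chi-square over its degrees of freedom was 6.10 and 5.51 against them and 2.31 between them. The labelled cell type was present by its markers, but these differed between the groups. Of 20 tested myotube markers 15 were lower in shGAA (75%, beside 19.7% of all tested genes) and 0 were higher (beside 18.5%). Several of these markers were highest in shScrambled 1. Myh3 had 107 CPM there, against 62.2 and 64.8 CPM in shScrambled 2 and 3, and Neb 77.6, against 55.2 and 51.7 CPM. Others were not, such as Myh7 (0.925, against 1.83 and 1.71 CPM). The summed level of the list was 2400 to 2620 CPM in shGAA against 3320 to 3680 CPM in shScrambled. Such a sum is set mostly by its most abundant genes. None of the 23 listed symbols in the table was at 0 in all libraries. The part of this difference in the results below was not tested, and in such bulk samples fewer cells of a type and less RNA per cell cannot be told apart.

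RNA of the folliculin complex was more abundant in shGAA cultures, as was that of Rragd. Rragc was lower, and no MiT factor passed the test. Of 9 tested genes, 4 were higher (18.5% of all tested genes were), 1 was lower (19.7% of all tested genes were) and 4 did not pass. Together 5 of 9 were called, beside 38.2% of all tested genes, so a call as such was common in this comparison. The median log2 fold change of the 9 was -0.03, against 0.01 for all tested genes. Higher genes made up 48.4% of all calls, and 60.0% when libraries were scaled by their size alone. That scaling left the 4 higher genes and 1 lower gene at the same numbers. The groups did not overlap in CPM for 6 of the 9, beside 49.6% of all tested genes. In 4 shGAA lay wholly above (24.7% of all tested genes) and in 2, Tfe3 and Rragc, wholly below (24.9%).

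**Figure D1:**
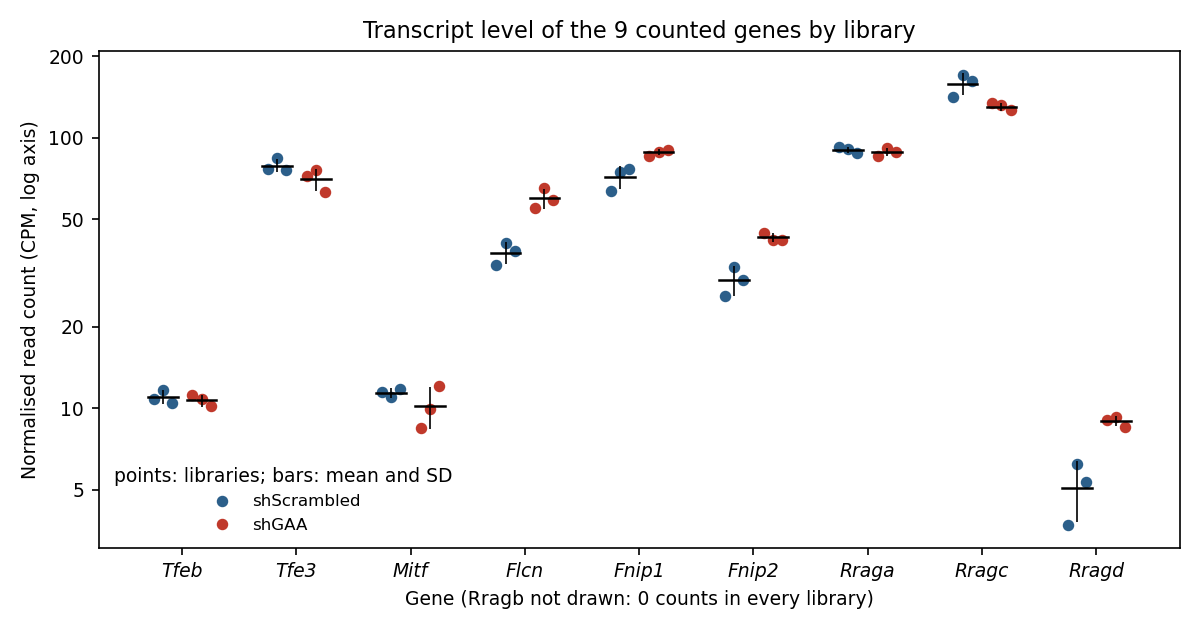
Normalised read counts (CPM, log axis) of the 9 tested genes in each library. Points are libraries, horizontal bars are group means and vertical bars SD (n = 3 per group). Flcn, Fnip1, Fnip2 and Rragd lie higher in every shGAA library than in any shScrambled library, Rragc lies lower, and Tfeb, Mitf and Rraga overlap.

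Flcn encodes folliculin, the catalytic subunit of the complex. It had 55.1, 65.1 and 58.9 CPM in shGAA 1 to 3 and 33.8, 40.7 and 38.2 CPM in shScrambled 1 to 3. Every shGAA library lay above every shScrambled library. The log2 change came to 0.67 ± 0.08 (SE, n = 3 per group, edgeR adjusted p = 7.43e-06), a 1.59-fold higher level with a 95% confidence interval of 1.41 to 1.79. Among all tested genes 8.78% had a larger absolute log2 fold change. Without shScrambled 1, which was the lowest library, the value was 0.60 and the edgeR adjusted p was 1.10e-08.

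Fnip2, one of the alternative folliculin partners, had 44.5, 42.0 and 41.8 CPM in shGAA 1 to 3 and 25.9, 33.4 and 29.7 CPM in shScrambled 1 to 3. The groups were separate, with the wider spread in shScrambled. Its log2 change came to 0.53 ± 0.09 (SE, n = 3 per group, edgeR adjusted p = 0.000159), or 1.44-fold (1.27 to 1.64). Fnip1, the other partner, had 85.9, 88.2 and 90.4 CPM in shGAA and 63.6, 74.4 and 76.3 CPM in shScrambled. The shGAA libraries were again all above the shScrambled libraries. Its log2 change came to 0.30 ± 0.07 (SE, n = 3 per group, edgeR adjusted p = 0.00174), or 1.24-fold (1.12 to 1.36). Without shScrambled 1 the log2 fold changes were 0.44 for Fnip2 and 0.23 for Fnip1, both still called (edgeR adjusted p = 3.67e-05 and 0.00221).

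RagC and RagD are the Rag subunits on which the folliculin complex acts, and their transcripts moved in opposite directions. Rragd had 9.09, 9.28 and 8.55 CPM in shGAA 1 to 3 and 3.70, 6.23 and 5.34 CPM in shScrambled 1 to 3, from 87 to 91 and 36 to 58 counts. The shGAA libraries were close together and above all shScrambled libraries, which differed more among themselves. The log2 change came to 0.82 ± 0.18 (SE, n = 3 per group, edgeR adjusted p = 0.00153), the largest of the 9 in size, or 1.77-fold with an interval of 1.36 to 2.29. Among all tested genes 5.64% had a larger absolute log2 fold change. Without shScrambled 1, again the lowest library, it was 0.63 (edgeR adjusted p = 0.00283).

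Rragc was far more abundant, with 134, 132 and 126 CPM in shGAA and 141, 170 and 162 CPM in shScrambled. All shGAA libraries lay below all shScrambled libraries, and shScrambled 1 was the nearest to them. The log2 change came to -0.28 ± 0.06 (SE, n = 3 per group, edgeR adjusted p = 0.00243), which left 82.6% of the control level. In GENCODE M21, the gene 4930535I16Rik on the opposite strand overlaps 10.2% of the exonic bases of Rragc. Of the 50-base stretches of Rragc, 6.75% occur in transcripts of other genes, and 4930535I16Rik shares the most of them. The symbol 4930535I16Rik is absent from the count table, so its own level cannot be read here. Whether strand was used in counting is not given in the sources used here, so part of these reads may be from that gene.

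The balance of the pair differed between the groups. Rragc had 14.7, 14.2 and 14.7 reads per Rragd read in shGAA and 38.3, 27.3 and 30.4 in shScrambled. No shGAA ratio reached the shScrambled ratios. The geometric mean ratio was lower by a factor of 2.18 (log2 difference -1.12, exact two-sided permutation p = 0.10, the smallest that 3 against 3 libraries allow, adjusted 0.133 over 4 pairs). Most RagC and RagD reads remained those of Rragc in both groups. The Fnip1 to Fnip2 ratio was 1.93, 2.1 and 2.16 in shGAA and 2.46, 2.23 and 2.57 in shScrambled. It did not overlap between the groups, and differed by -0.23 on the log2 scale (exact permutation p = 0.10, adjusted 0.133). Of the 5 pairs planned, Rraga with Rragb gave no ratio because Rragb had no reads.

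**Figure D2:**
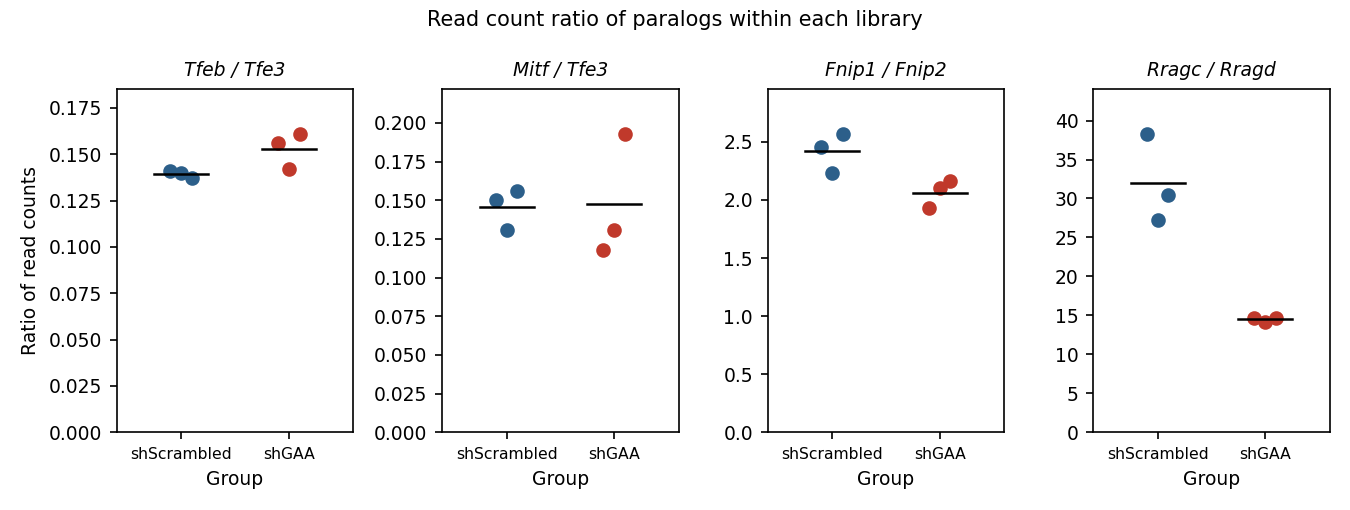
Ratio of read counts of 2 related genes within each library, with the mean of 3 ratios per group as a bar and a linear axis from 0 in each panel. Rragc to Rragd lies between 14.2 and 14.7 in shGAA and between 27.3 and 38.3 in shScrambled, and Mitf to Tfe3 overlaps between the groups.

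RagA and RagB are the alternative partners of RagC and RagD. Rraga had 85.7, 91.3 and 88.7 CPM in shGAA and 92.0, 90.5 and 88.0 CPM in shScrambled. The groups overlapped, and the 95% confidence interval of the log2 fold change ran from -0.14 to 0.09 (edgeR adjusted p = 0.742). Rragb had 0 counts in all 6 libraries, which allows a level of up to 0.282 to 0.322 CPM per library (the limit of 3 counts, which covers counting error only). Of the 50-base stretches of Rragb, 0.222% occur in transcripts of other genes, and Rraga shares none with other genes (0%).

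None of the MiT factors passed the test. Tfe3, the most abundant of them here, had 72.0, 75.8 and 63.0 CPM in shGAA and 76.6, 83.8 and 76.1 CPM in shScrambled. The highest shGAA library lay just under the lowest shScrambled library. Its log2 change came to -0.17 ± 0.07 (SE, n = 3 per group, edgeR adjusted p = 0.0674). It passed without shScrambled 1 (edgeR adjusted p = 0.0237, log2 fold change -0.19), without shGAA 2 (edgeR adjusted p = 0.0416, log2 fold change -0.22) and with no filter on low counts (edgeR adjusted p = 0.0337), each of which raised the lower genes from 1 to 2. Over all single libraries left out, its adjusted p ranged from 0.0237 to 0.336.

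Tfeb, the best-known regulator of lysosomal genes, had 11.2, 10.8 and 10.2 CPM in shGAA and 10.8, 11.7 and 10.5 CPM in shScrambled. The groups overlapped, and the 95% confidence interval of its log2 fold change was -0.30 to 0.23 (edgeR adjusted p = 0.846), so at 98 to 110 counts a difference of up to about that size could be missed. Mitf, the master regulator of pigment cells, had 8.48, 9.92 and 12.1 CPM in shGAA and 11.5, 11 and 11.8 CPM in shScrambled, with both the lowest and the highest value in shGAA. Its interval was -0.46 to 0.14 (edgeR adjusted p = 0.388). Tfec, the remaining gene of the family, had 0 counts in all libraries. Tfeb had 0.142 to 0.161 reads per Tfe3 read in shGAA and 0.137 to 0.141 in shScrambled, which did not overlap (exact permutation p = 0.10, adjusted 0.133), and the Mitf to Tfe3 ratio overlapped (exact permutation p = 1, adjusted 1).

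Mitf is also used by pigment cells and, with Tfe3 and Tfec, by macrophages and osteoclasts. Of 10 melanocyte markers, 6 were at 0 in all libraries, Tyr, Dct, Mlana and Sox10 among them. Their summed level was 0.107 to 0.613 CPM in shGAA and 0.322 to 0.640 CPM in shScrambled. Of 12 myeloid markers 3 were at 0 in all libraries, Itgam, Calcr and Tfec. The sum of the 12 was 16.3 to 20 CPM in shGAA and 26.0 to 27.3 CPM in shScrambled. Most of that was Cd14 (15.2 and 23.1 CPM), while the pan-leukocyte gene Ptprc had 0 or 1 count in each library.

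**Figure D3:**
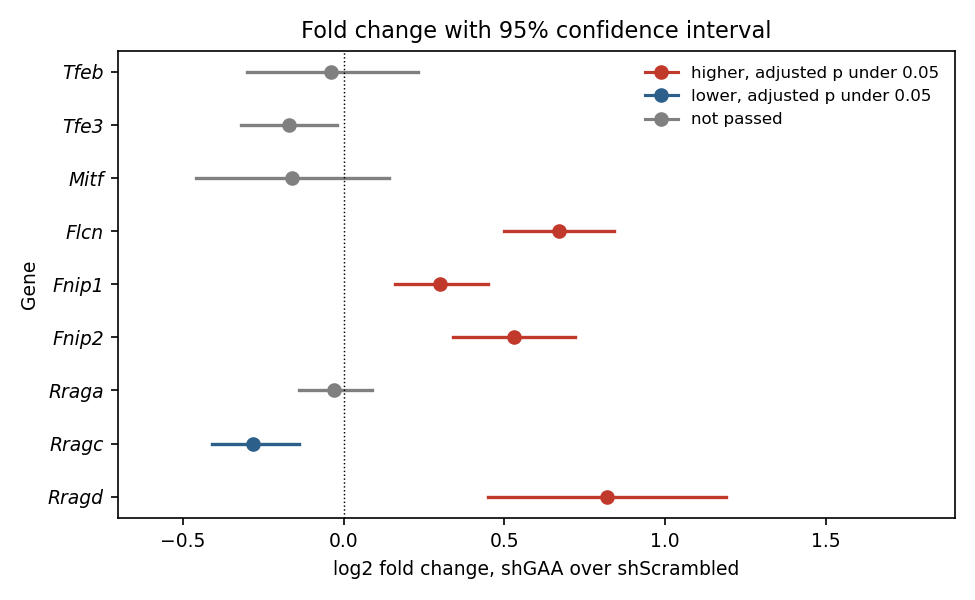
Log2 fold change of shGAA over shScrambled for each tested gene (points) with its 95% confidence interval (lines), coloured by the call. The intervals of Flcn, Fnip1, Fnip2 and Rragd lie above 0, that of Rragc lies below 0, and that of Tfe3 ends at -0.02 without passing after adjustment.

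Levels of different genes can be compared only per length. Divided by the exonic length of GENCODE M21, in CPM per kilobase, the control order was Rragc (60.9 ± 5.71, SD, n = 3), Rraga (55.7 ± 1.25), Tfe3 (21.8 ± 1.18), Fnip1 (11.4 ± 1.10), Flcn (10.7 ± 0.995), Fnip2 (4.07 ± 0.514), Tfeb (2.74 ± 0.161), Mitf (2.14 ± 0.0848) and Rragd (0.984 ± 0.247). Rragc and Rraga overlapped in their libraries, as did Fnip1 and Flcn, and the other neighbours did not. In shGAA, Rraga (54.8 ± 1.74 CPM per kilobase) lay above Rragc (50.1 ± 1.59). There Flcn (17 ± 1.44) overlapped Tfe3 (19.4 ± 1.81) and lay above Fnip1 (14.1 ± 0.360). Fnip2 stood at 5.86 ± 0.207, Tfeb at 2.66 ± 0.136, and Rragd (1.74 ± 0.0731) overlapped Mitf (1.92 ± 0.346). The annotation used for counting is not given in the sources used here, so these lengths are approximate.

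All 10 genes were placed on GRCm38.p6, the assembly of mm10, as follows. Flcn (Entrez 216805) spans 59791408 to 59810039 on chromosome 11. Fnip1 (216742) spans 54438107 to 54518241 on the same chromosome. Fnip2 (329679) spans 79455971 to 79568151 on chromosome 3. On chromosome 4 lie Rragd (52187, 32982998 to 33022180), Rraga (68441, 86575673 to 86577285) and Rragc (54170, 123917433 to 123936997). Tfeb (21425) spans 47737037 to 47792416 on chromosome 17 and Mitf (17342) 97807002 to 98021360 on chromosome 6. Tfe3 (209446, 7762530 to 7775202) and Rragb (245670, 153137644 to 153190192) are on chromosome X. Apart from Rragc, none of the 10 has an exon overlapped by another gene in GENCODE M21, and none shares more than 0.750% of its 50-base stretches.

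The other genes that control the Rag GTPases and mTORC1 mostly did not pass. Of 33 tested, 7 were higher (21.2%, beside 18.5% of all tested genes), 3 were lower (9.09%, beside 19.7%) and 23 did not pass. Together 30.3% were called, beside 38.2% of all tested genes, and the median log2 change was 0.09. Sesn2, an amino acid sensor and stress-response gene, was the rise with the smallest adjusted p, from 25.1 ± 1.37 to 36.6 ± 1.81 CPM (log2 fold change 0.55 ± 0.08 (SE), n = 3 per group, edgeR adjusted p = 6.81e-05). Depdc5, a subunit of the GATOR1 complex that inactivates RagA and RagB, rose by 0.33 ± 0.08, Tsc1, which restrains Rheb, by 0.28 ± 0.07, and Lars, a leucyl-tRNA synthetase gene, by 0.25 ± 0.05. Rptor, which encodes the mTORC1 subunit that binds the Rag heterodimer, fell by 0.41 ± 0.06 (edgeR adjusted p = 2.81e-05), Rheb, the activator of mTORC1, by 0.25 ± 0.05, and the GATOR1 gene Nprl3 by 0.26 ± 0.08. The largest rise was that of Gatsl3, which encodes the arginine sensor CASTOR1, by 0.80 ± 0.21 (edgeR adjusted p = 0.00744). It rests on few reads, 36 to 47 counts in shGAA and 21 to 24 in shScrambled. Rhebl1, a relative of Rheb, rose by 0.49 ± 0.18 (edgeR adjusted p = 0.0409), at 55 to 66 and 38 to 43 counts. All 5 genes of the Ragulator, which anchors the Rag GTPases to the lysosome, failed to pass, with log2 fold changes between -0.10 (Lamtor5) and 0.18 (Lamtor2). The 7 higher genes were 12 when scaled by library size alone and 4 in DESeq2.

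Among genes acting on TFEB and TFE3, 41.9% were called, beside 38.2% of all tested genes. Of 31 tested, 8 were higher (25.8%, beside 18.5% of all tested genes), 5 were lower (16.1%, beside 19.7%) and 18 did not pass, with a median log2 fold change of 0.02. Mcoln1, the lysosomal calcium channel upstream of calcineurin, rose by 0.42 ± 0.07 (SE, n = 3 per group, edgeR adjusted p = 0.000257). Mcoln1 is also on the list of target genes below, so its rise is counted in both lists. Prkab2, an AMPK subunit gene, rose by 0.43 ± 0.07. The 14-3-3 genes, whose products hold phosphorylated TFEB in the cytoplasm, had 1 rise, 3 falls and 2 without a call among 6 tested. Over all tested genes 18.5% were higher and 19.7% lower, and 6 genes are few to set beside these shares. Ywhag rose by 0.24 ± 0.04, while Ywhah fell by 0.30 ± 0.05, Ywhaz by 0.22 ± 0.04 and Ywhaq by 0.24 (edgeR adjusted p = 0.0116). Xpo1, the exportin that carries TFEB out of the nucleus, fell by 0.27 ± 0.05 (edgeR adjusted p = 0.000418), and the phosphatase gene Ppp2ca by 0.19 ± 0.04. The 8 higher genes were 12 when scaled by library size alone, 4 in DESeq2 and without shScrambled 3, and 5 without shGAA 1.

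Of 39 tested target genes of TFEB and TFE3, 19 were higher (48.7%, beside 18.5% of all tested genes), 4 were lower (10.3%, beside 19.7%) and 16 did not pass. The list leaves out Gaa and the 10 genes above, and its median log2 fold change was 0.14, against 0.01 for all tested genes. It was drawn up with results of these data known. Ctsf, a cathepsin gene, rose by 0.80 ± 0.13, Ctns, the lysosomal cystine exporter gene, by 0.71 ± 0.10, and Neu1, a gene of lysosomal glycan breakdown, by 0.45 ± 0.07 (SE, n = 3 per group, edgeR adjusted p = 0.000147 for Neu1). The falls were Atp6v0d2 by 0.81 ± 0.13 and Atp6ap1 by 0.17 ± 0.05, 2 of the list's proton pump genes, the membrane protein gene Lamp1 by 0.40 ± 0.05 and the carboxypeptidase gene Scpep1 by 0.39 ± 0.05. Of the 9 tested proton pump genes on the list, 2 others rose, Atp6v0d1 by 0.27 and Atp6v1d by 0.21 (edgeR adjusted p = 0.0081 and 0.00884), and 5 did not pass. For so few genes, 2 rises and 2 falls among 9 are near the shares of all tested genes (18.5% higher and 19.7% lower). The summed level of the list overlapped between the groups, at 9130 to 9680 CPM in shGAA and 8900 to 9490 CPM in shScrambled. That sum is set mostly by the most abundant genes of the list and says little about the others. With single libraries left out the count of higher genes was 15 to 20.

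**Figure D4:**
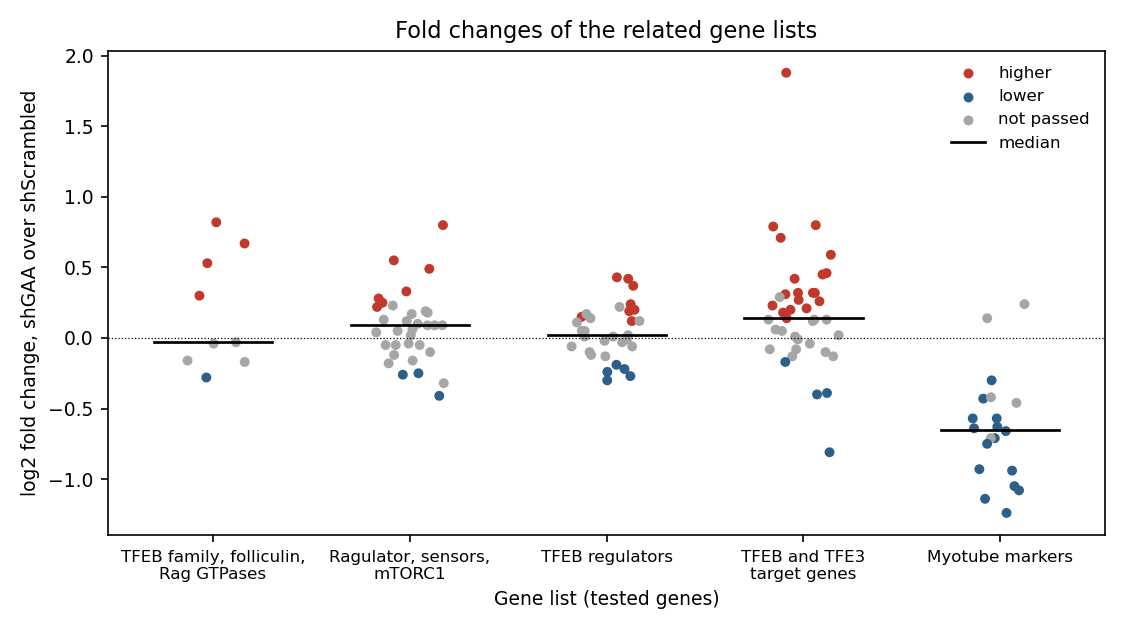
Log2 fold change of shGAA over shScrambled for the tested genes of 5 lists (points, coloured by the call, spread sideways for legibility) with the median of each list as a bar. The medians are -0.03 for the 9 genes, 0.09, 0.02 and 0.14 for the 3 pathway lists and -0.65 for the myotube markers.

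The genes whose levels over the 6 libraries ran closest to those of Flcn were Gulp1, Ddit3 and Spry1. Closeness was the root mean square distance of centred log2 CPM, at 0.040 for Gulp1, 0.052 for Ddit3 and 0.057 for Spry1, against a median of 0.36 over 10334 genes. Gulp1 encodes an adaptor for engulfment, Ddit3 the stress-response factor CHOP, and Spry1 an inhibitor of growth factor signalling. Ddit3 had 59.8 ± 3.11 CPM in shGAA and 37.8 ± 3.31 CPM in shScrambled, against 59.7 ± 5.05 and 37.6 ± 3.49 CPM for Flcn. Because values were centred, the similar CPM of these genes plays no part in the distance. The 6 libraries share the group difference, which dominates this measure.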

How the data were processed

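RNA was sequenced from 6 libraries of C2C12 cells. The deposited file holds raw counts by gene symbol, as made by the authors, and the submitters' processing notes name HISAT2 2.1.0, Subread, FastQC, edgeR and the build mm10. The annotation, strand setting and treatment of multi-mapping reads were not stated in the sources. Counts were filtered with filterByExpr (11801 of 24421 symbols kept), scaled by TMM and tested with edgeR 4.0.16 in R 4.3.3 by a robust quasi-likelihood fit with the group as the only term. P-values were adjusted by Benjamini-Hochberg over all tested genes, and calls were made under 0.05. The SE was derived from the coefficient and its F statistic. Paralog ratios of counts were compared by exact permutation. The fitting code was tested on simulated data, where null p-values were calibrated. The simulation changed far fewer genes than were called here, evenly in both directions, and had no library that stood apart. Its calibration need not hold for these data. The share of false calls varied between draws and was on average somewhat above the nominal level. A first version of this test judged a single draw and failed, and several draws were judged after that. The genes and lists were chosen with earlier results of these data known. Listed genes were named by smallest adjusted p, up to 4 per list and direction, some of which are not reported here. A few others (Lamtor2, Lamtor5, Gatsl3, Rhebl1, Ywhaq, Atp6v0d1, Atp6v1d, Myh3, Neb, Myh7, Cd14, Ptprc and the melanocyte and myeloid genes at 0) were named after their values were seen. The myotube, target and Rag lists contain older and newer symbols of some genes, of which 1 is in the table. Alternatives were other scalings, no filter, a non-robust fit, a replicate block, DESeq2 1.42.0, limma-voom (limma 3.58.1) and each library left out.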

Additional observations from a re-analysis of the deposited data

How the results depend on the processing

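The 4 higher genes stayed 4 under every alternative run, and Rragc was called lower in all of them. The 1 lower gene became 2 with no filter on low counts, and was 1 to 2 with single libraries left out. Higher genes of the Rag and mTORC1 list numbered 12 when scaled by library size alone and 4 in DESeq2 (5 to 9 with libraries left out), and of the TFEB regulators 4 in DESeq2 (4 to 8). Tfeb was at 0.01 with library size only and -0.07 to 0.01 with libraries left out (0.01 without shGAA 3 or shScrambled 2), and Rraga at 0.02 with library size only, none of them called. Same-numbered libraries did not visibly deviate together (correlations of -0.04, 0.06 and -0.02, against -0.08 to 0.08 for differently numbered ones). With so few libraries this cannot tell whether same-numbered libraries share a culture or day. The labels do not say what the numbers mark, so the main fit was unpaired. With the replicate block 4 genes were higher and 1 lower, with 2037 higher and 2197 lower over all genes. Counts of 36 to 129 per library limit Tfeb, Mitf and Rragd. The cause of these shifts was not tested.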
